A study of Mus musculus with 4 samples.

Results

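The mTOR complex and regulator genes described here are 10 genes: Mtor, Mlst8, Deptor, Rptor, Akt1s1, Rictor, Tsc1, Tsc2, Rheb and Eif4ebp1. They were listed by name as parts of the complexes and their regulators. The rule uses no measured value, although earlier results of these data were known when the list was made. All 10 had a probe on the array, out of 22911 genes with a symbol there, and they were read through 16 probes. None of the 16 probes passed the test for a difference between the treatments. Their log2 fold changes, MOTS-c minus scrambled peptide, ran from -0.14 (Eif4ebp1) to 0.23 (the brightest Rictor probe), and for 9 of the 10 genes the 95% interval of the brightest probe excluded a change of 1.5-fold in either direction. Rictor was the exception on its brightest probe, with an interval that reached 1.54-fold. With the mean over the probes of a gene, the interval lay inside 1.5-fold for all 10 genes. Of all probes tested, 50.2% had an interval inside 1.5-fold, and 57.6% and 79.8% in the 2 brighter of 4 groups by signal. The counts also depended on the test: under an ordinary t-test 9 of the 16 member probe intervals lay inside, against 13 here.

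mTOR is a protein kinase that couples amino acid supply, energy state and growth factor signals to protein synthesis, growth and autophagy. It works in a pair of complexes: mTORC1, built around Raptor (Rptor) and active on the lysosome when Rheb is loaded with GTP, and mTORC2, built around Rictor, which phosphorylates AKT and related kinases. In pancreatic beta cells the pathway is known for its control of cell mass and insulin production. It is switched mainly by protein phosphorylation, nucleotide loading and location, which an RNA array does not measure.

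The 4 arrays held RNA of pancreatic islet cells from 60-week-old C57BL/6 mice, described as male, with no transgene or mutation named. Islets were picked by hand, dispersed to single cells and given MOTS-c or a scrambled control peptide ex vivo, each at 10 μM for 24 h, and each treatment was measured on 2 arrays. MOTS-c is a short peptide encoded within the mitochondrial 12S rRNA gene, and the comparison asks which islet cell transcripts it changes. The animals were 4 littermates, but no source says whether 1 array is 1 mouse, so p-values measure the spread between these arrays.

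All 4 arrays lay on 1 slide. Between 61.6% and 65% of the gene spots on an array were well above background, the scanner software's call for a spot that stands clear of its surroundings, and no gene spot was saturated. The cells were not sorted: all 8 beta cell markers were detected, with mean log2 signals of 14.15 and 14.16 with the scrambled peptide against 13.92 and 14.00 with MOTS-c, as were 4 of 5 alpha cell markers and 3 of 3 delta cell markers. Of the beta cell markers Slc2a2, a glucose transporter, had the largest difference, -1.33 (SE 0.14, unadjusted p = 0.000277, limma adjusted p = 0.474), and was well above background on 1 of the 2 MOTS-c arrays. Among 3 macrophage and leukocyte markers detected of 7, C1qa differed by -0.67 (SE 0.20, limma adjusted p = 0.548), lower without overlap (18.6% of all probes were). On their brightest probes Cd68 gave 0.16 and Cd3e -0.04, both with overlapping groups. A dimmer Cd3e probe gave 0.49, higher without overlap (19.4% of all probes were). The 2 of 7 acinar markers that were detected, Cela1 and Cela2a, averaged 8.81 and 9.01 with the scrambled peptide against 8.58 and 8.05 with MOTS-c. The defining acinar genes Cpa1, Cpb1, Prss2, Pnlip and Amy2a5 were not above background. The 3 of 7 mesenchymal markers detected averaged 8.56 and 8.51 against 8.17 and 7.90, while Col1a1, Col3a1, Pdgfrb and Lum were not above background. The largest difference was -1.05 for Pdgfra, a dim probe at 1.74 to 3.46 times its local background. Col1a2 gave -0.30 with overlapping groups, and Acta2, the brightest, gave -0.14. The mean of the detected alpha cell markers was 9.77 and 9.79 with the scrambled peptide against 10.19 and 10.06 with MOTS-c. The part of these marker differences in the results was not tested. In RNA from unsorted cells, fewer cells of a type and less RNA per cell cannot be told apart. On none of the arrays was any of 7 probes for 4 Y-linked genes (Ddx3y, Eif2s3y, Kdm5d, Uty) clear of background, while Xist, which coats the inactive X chromosome, gave 23.7 to 33.5 times its local background, so the arrays of both groups went against the sex in the labels in the same way.

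Values below are log2 signals, quantile normalized, in the order scrambled replicate 1, scrambled replicate 2, MOTS-c replicate 2 and MOTS-c replicate 3. Because probes hybridize with different strength, a level is compared between arrays for 1 probe and never between probes.

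The catalytic kinase and the subunits that both complexes share came first. Mtor, the kinase itself, was read by 1 probe (A_51_P282179) at 10.13, 10.06, 10.18 and 10.08, which is 25.4 to 31.5 times its local background. The groups overlapped, and the largest distance between any 2 of the 4 arrays was 0.12. Its log2 fold change was 0.04 (standard error, SE, 0.12, 95% interval -0.29 to 0.36, limma adjusted p = 0.964). Expressed as a ratio, the interval ran from 0.820 to 1.29, so a change of Mtor RNA by 1.5-fold in either direction lay outside it.

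Mlst8, a subunit that binds the kinase domain, stood at 12.12, 12.33, 12.19 and 12.11 (probe A_52_P357402). The highest array was a scrambled one and the groups overlapped. The log2 fold change was -0.08 (SE 0.14, 95% interval -0.44 to 0.29, limma adjusted p = 0.925). Deptor encodes an inhibitor of the kinase. Its brighter probe (A_65_P14821) gave 10.74, 10.38, 10.61 and 10.68, with both MOTS-c arrays between the scrambled ones, and a log2 fold change of 0.09 (SE 0.17, 95% interval -0.35 to 0.53, limma adjusted p = 0.933). The second probe (A_51_P445841) gave 9.46, 9.08, 9.17 and 9.42. It showed the same arrangement, with scrambled replicate 1 highest and scrambled replicate 2 lowest, and a log2 fold change of 0.02 (SE 0.19). The gap between the 2 scrambled arrays was 0.36 for the first Deptor probe and 0.38 for the second, several times larger than either difference between treatments.

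The subunits particular to mTORC1 had intervals within 1.5-fold as well. Rptor, the scaffold that brings substrates to the kinase, had signals of 12.20, 12.37, 12.31 and 12.43 (probe A_52_P229320). The MOTS-c arrays stood on either side of scrambled replicate 2, and the log2 fold change was 0.08 (SE 0.14, 95% interval -0.28 to 0.44, limma adjusted p = 0.923). Akt1s1 encodes PRAS40, an inhibitor of mTORC1 that AKT phosphorylates. Its brighter probe (A_55_P2848456) lay at 12.09, 12.10, 12.14 and 12.00, and the 2 scrambled arrays were only 0.011 apart. The log2 fold change was -0.03 (SE 0.13, 95% interval -0.36 to 0.30, limma adjusted p = 0.974). The other Akt1s1 probe (A_51_P478326), at 10.96, 11.16, 10.95 and 11.01, gave -0.08 (SE 0.14), and the groups overlapped for both.

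Rictor, the scaffold of mTORC2, had 3 probes and the largest value among the members. On the brightest (A_52_P145412) the signals were 8.13, 7.86, 8.20 and 8.25, at 9.36 to 11.6 times the local background. Both MOTS-c arrays were above both scrambled arrays, by 0.07 between the nearest pair, while the scrambled arrays were 0.27 apart. The log2 fold change was 0.23 (SE 0.15, 95% interval -0.16 to 0.62), with an unadjusted p of 0.186 and a limma adjusted p of 0.767. Of all probes tested, 68.7% had an absolute change no larger than this one. The second Rictor probe (A_51_P218948), at 6.38, 5.65, 6.33 and 6.06, gave 0.18 (SE 0.28) with overlapping groups. The third (A_52_P550602), at 5.56, 5.50, 5.33 and 5.68, gave -0.03 (SE 0.17). The 3 probes thus differed in sign, and their mean was 0.13 (SE 0.15, 95% interval -0.28 to 0.54, limma adjusted p = 0.822 on gene means) with overlapping groups. Both dimmer probes were near background, at 1.80 to 2.98 times its local level.

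**Figure D1:**
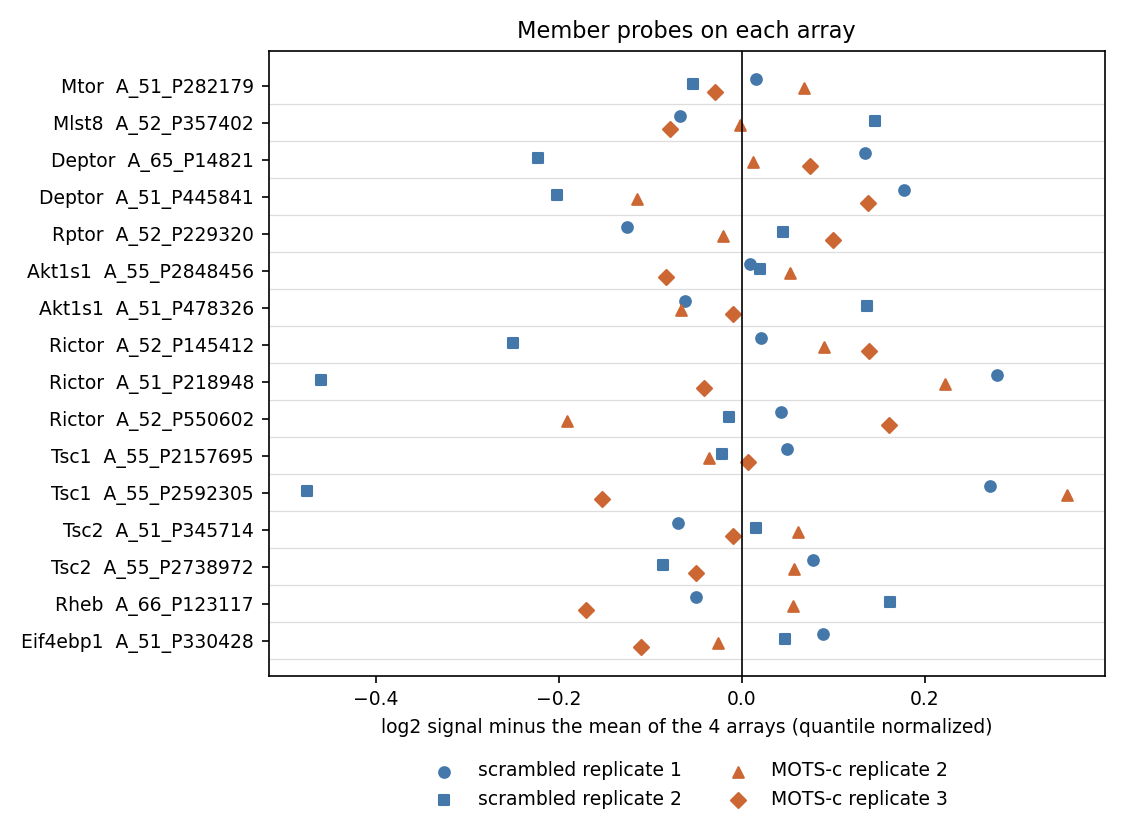
Log2 signal of each of the 16 member probes on each array, as the difference from that probe's mean over the 4 arrays (horizontal axis, log2 units). Circles and squares are scrambled replicates 1 and 2, triangles and diamonds are MOTS-c replicates 2 and 3. The colours separate only for the brightest Rictor probe, where both MOTS-c arrays are higher, and for Eif4ebp1, where both are lower.

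Upstream of mTORC1, the TSC complex acts on Rheb as a GTPase activating protein and so holds mTORC1 off, and Rheb is the small GTPase that turns it on. Tsc2, which carries the catalytic domain, gave 13.73, 13.82, 13.86 and 13.79 on probe A_51_P345714, a log2 fold change of 0.05 (SE 0.12, 95% interval -0.27 to 0.38, limma adjusted p = 0.946). A second Tsc2 probe (A_55_P2738972) gave 9.86, 9.70, 9.84 and 9.74 and a log2 fold change of 0.01 (SE 0.13). Groups overlapped on both probes.

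Tsc1, which stabilizes Tsc2, was at 10.41, 10.34, 10.32 and 10.36 on its brighter probe (A_55_P2157695), with 0.09 between the lowest and the highest array, the smallest range among the member probes. The log2 fold change was -0.03 (SE 0.12, 95% interval -0.34 to 0.29, limma adjusted p = 0.974). Its other probe (A_55_P2592305) was the only member probe that was not well above background on every array: it missed that call on 1 scrambled array. It gave 4.74, 3.99, 4.82 and 4.31, which overlapped, and a log2 fold change of 0.20 (SE 0.32, 95% interval -0.64 to 1.04). The opposite signs of the 2 Tsc1 probes were thus both within their errors. Rheb, on probe A_66_P123117, lay at 11.74, 11.96, 11.85 and 11.62. The MOTS-c arrays included both an intermediate value and the lowest one, and the log2 fold change was -0.11 (SE 0.16, 95% interval -0.52 to 0.29, limma adjusted p = 0.898).

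Eif4ebp1 encodes 4E-BP1, a repressor of cap-dependent translation that mTORC1 inactivates by phosphorylation. Its probe (A_51_P330428) gave 12.38, 12.34, 12.26 and 12.18. Both MOTS-c arrays were below both scrambled arrays, and the nearest arrays of the 2 groups differed by 0.07. The log2 fold change was -0.14 (SE 0.12, 95% interval -0.45 to 0.18), with an unadjusted p of 0.316 and a limma adjusted p of 0.833.

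**Figure D2:**
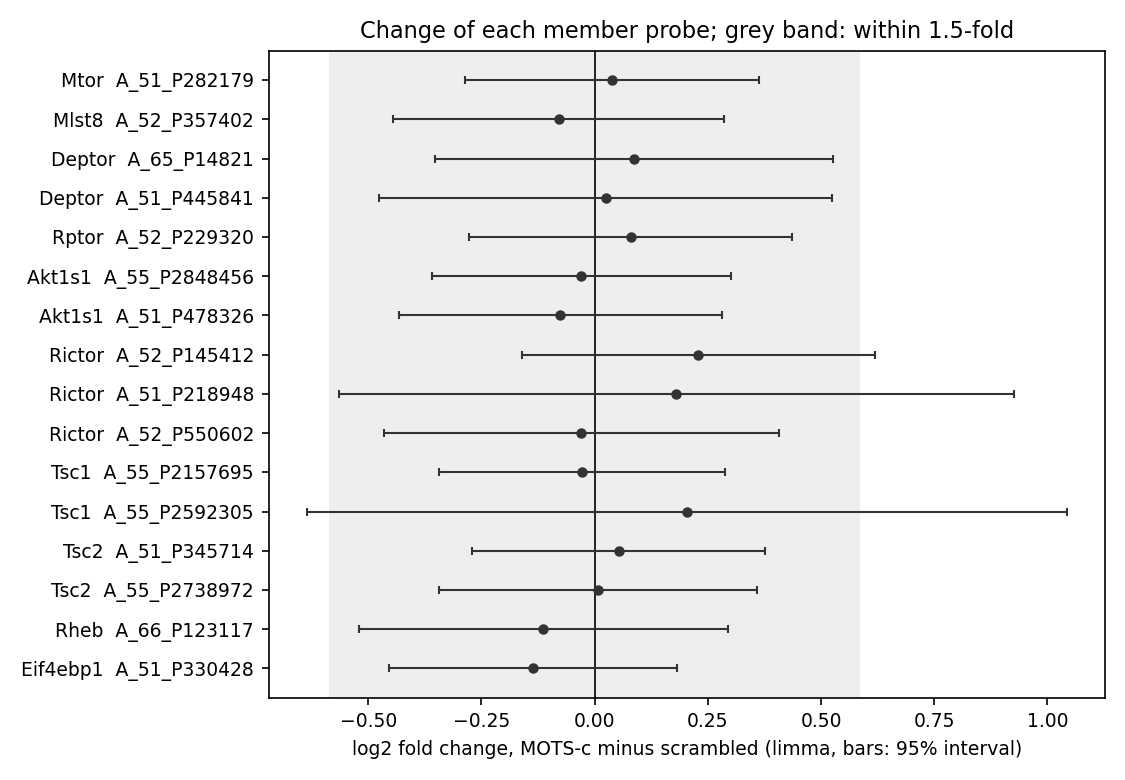
Log2 fold change of each member probe, MOTS-c minus scrambled (points), with the 95% interval from limma (bars) and a grey band for changes under 1.5-fold. Every interval includes 0, and 13 of 16 lie wholly inside the band; the brightest Rictor probe, a dimmer Rictor probe and the dimmer Tsc1 probe extend beyond it.

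Across the 16 probes, 0 passed an adjusted p of 0.05, as did 0% of the 35087 probes tested on the array, where the lowest adjusted p was 0.474. At an unadjusted p under 0.05 the member count was 0, against 7.85% of all probes tested, and it was 0 for the combination of that p with a change of at least 1.5-fold, against 3.53%. No member probe changed by 1.5-fold on size alone, while 5.24% of all probes did. The groups were without overlap for 2 of the 16 probes, against 38.0% of all probes tested. One of these was higher with MOTS-c (Rictor; 19.4% of all probes) and the other lower (Eif4ebp1; 18.6%). With 2 arrays against 2, the smallest two-sided p that an exact permutation test of 1 probe allows is 0.333.

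The spread between replicates was set beside the differences between treatments. For 15 of the 16 probes the difference between the group means was below the larger of the 2 gaps between arrays of one treatment, and for 10 it was below both. The exception was Eif4ebp1, whose difference of -0.14 stood beside gaps of 0.04 and 0.08. A gap between single arrays varies more than a difference between means of 2 arrays. Many probes without any difference would thus meet this. The median gap over member probes was 0.18 for the scrambled pair and 0.10 for the MOTS-c pair, and the median absolute change was 0.08. Over all probes tested these were 0.16, 0.19 and 0.14. The changes of 14 member probes were smaller than their own standard errors. No share over all probes stands beside these counts, so they do not set the members apart. Signs were mixed, with 9 probes higher and 7 lower, a median of 0.02 over the members and a median of 0.01 over all probes. By the brightest probe, 5 genes were higher and 5 lower.

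The extreme values of the members fell on all 4 arrays. Scrambled replicate 1 held the highest value for 6 of the 16 probes and scrambled replicate 2 the lowest for 7, while MOTS-c replicate 2 was highest for 4 and lowest for 3, and MOTS-c replicate 3 highest for 3 and lowest for 4. Over the whole array, the highest value of a probe fell on these arrays in 19.2%, 26.8%, 25.6% and 28.4% of cases in the order given above, and the lowest in 23.7%, 26%, 16.9% and 33.3%.

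The signal level set how small a change could be resolved. When all probes tested were split by mean signal into 4 groups of equal size, the share of probes with a 95% interval inside 1.5-fold was 21.4%, 41.9%, 57.6% and 79.8% from the dimmest to the brightest, and 50.2% over all. Of the member probes, 6 were in the brightest group and 6 in the next, 1 (the brightest Rictor probe) in the third and 3 in the dimmest. The 3 member probes whose intervals reached beyond 1.5-fold were in the 2 dimmer groups. With any 1 array left out, between 4 and 9 of the 16 intervals lay inside 1.5-fold. For the 3 probes named above, a change above 1.5-fold was not excluded at this signal and number of arrays.

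**Figure D3:**
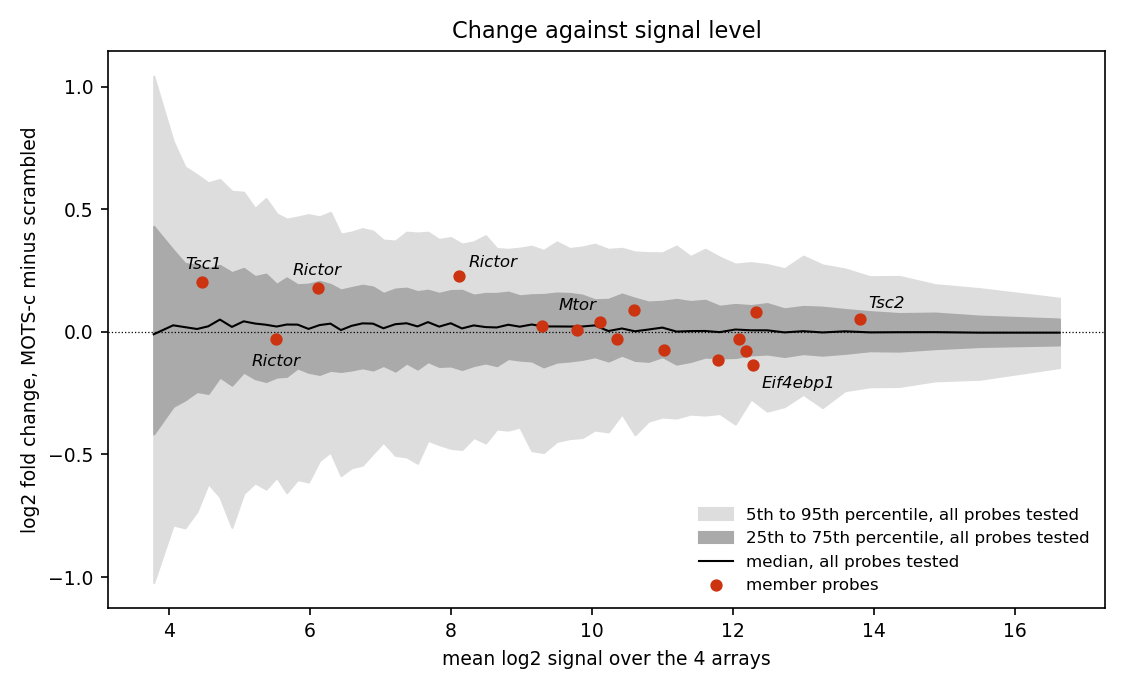
Log2 fold change, MOTS-c minus scrambled (vertical axis), against the mean log2 signal over the 4 arrays (horizontal axis) for the 16 member probes (red) over the range of all 35087 probes tested (grey: central bands; line: median). The bands narrow with signal, and every member probe lies within the wider band; the brightest Rictor probe has the largest member change, 0.23.

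The genes around the members were read from lists of 62 further pathway genes, all 62 of which had a tested probe (102 of 105 probes). By the brightest probe of each gene 31 were higher and 31 lower, with a median log2 fold change of 0.00. None passed an adjusted p of 0.05. An unadjusted p under 0.05 was reached by 2 (Ndrg1 and Grb10), against 7.85% of all probes tested, and Grb10 passed the background filter only through the scrambled arrays, where it was higher, so its p is no support. For 53 of the 62 genes the 95% interval lay inside 1.5-fold, against 50.2% of all probes, and with 1 array left out for 12 to 36. The groups did not overlap for 26, against 38.0% of all probes: 14 with MOTS-c higher (19.4%) and 12 lower (18.6%). With 1 array left out, which makes this easier to meet, the groups of 39 to 49 genes did not overlap.

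Within the nutrient-sensing arm, the 9 genes of the Rag GTPases and Ragulator, which bring mTORC1 to the lysosome, had a median of 0.00 and a range of -0.20 to 0.16, and all 9 intervals lay within 1.5-fold. The 11 genes of GATOR and KICSTOR, complexes that act in amino acid sensing, had a median of -0.01 and a range of -0.26 to 0.23. The 9 amino acid sensors and folliculin genes had a median of 0.04, and the 7 upstream inputs, among them the AKT kinases, one of -0.03. The 15 mTORC1 substrates and effectors had a median of 0.02. None of the genes in these 5 lists passed an adjusted p of 0.05.

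The partners of Rictor in mTORC2 included Mapkap1, which encodes the subunit SIN1. Its brightest probe (A_52_P278248) was at 8.78, 8.98, 9.13 and 9.004, so both MOTS-c arrays were above both scrambled arrays, but by only 0.03 between the nearest. The log2 fold change was 0.19 (SE 0.14, limma adjusted p = 0.799). The other Mapkap1 probes gave 0.20 and 0.24, with adjusted p of 0.767 and 0.736 by limma, and also did not overlap. Such agreement of every probe without overlap was seen for 10 of the 31 list genes that had more than 1 probe tested, and probes of one gene on the same 4 arrays are not replicates. Prr5 (Protor-1), another mTORC2 subunit, gave 0.14 (SE 0.14) and its relative Prr5l gave -0.05 (SE 0.13), both with overlapping groups. The 6 mTORC2 partner and assembly genes together had a median of 0.09, with 4 higher and 2 lower.

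The closest relatives of members had values in both directions, and none passed the test. Eif4ebp2 and Eif4ebp3 encode repressors of the same kind as Eif4ebp1. Eif4ebp2 stood at 11.95, 11.93, 12.21 and 11.97 and had a log2 fold change of 0.15 (SE 0.14, limma adjusted p = 0.837). Eif4ebp3 was at 11.25, 11.09, 11.39 and 11.42, a log2 fold change of 0.24 (SE 0.13, limma adjusted p = 0.732). Both were higher on each MOTS-c array than on either scrambled array (19.4% of all probes were), the opposite arrangement to Eif4ebp1. For Eif4ebp2 the nearest arrays of the 2 groups differed by only 0.025. Without MOTS-c replicate 2 its value was 0.035. Rhebl1, a relative of Rheb, was at 11.92, 11.89, 11.73 and 11.57. Its log2 fold change of -0.26 (SE 0.13, 95% interval -0.59 to 0.08, limma adjusted p = 0.711) came with no overlap between the groups (lower in 18.6% of all probes). Tbc1d7, the third subunit of the TSC complex, gave -0.02 (SE 0.14).

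Among the substrates, Rps6kb1 (S6 kinase 1) was at 12.57, 12.23, 12.43 and 12.95 on its brightest probe, a log2 fold change of 0.29 (SE 0.24, limma adjusted p = 0.816) with overlapping groups. Without MOTS-c replicate 3, its highest array, the value was 0.03. The dimmer Rps6kb1 probe (A_52_P170486) gave 0.31 (SE 0.15, limma adjusted p = 0.703), higher without overlap (19.4% of all probes were). Rps6kb2 gave 0.11 (SE 0.12), and Rps6, the ribosomal protein that these kinases phosphorylate, gave 0.02 (SE 0.12). Rps6 signal may include processed copies of the gene.

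Ndrg1, whose protein is phosphorylated by the mTORC2 substrate SGK1, had signals of 14.68, 14.50, 14.13 and 14.20. Both MOTS-c arrays were lower, with a log2 fold change of -0.42 (SE 0.13, 95% interval -0.77 to -0.07), an unadjusted p of 0.0278 and a limma adjusted p of 0.566. Grb10, an adaptor that mTORC1 phosphorylates and that restrains insulin signalling, was at 4.54, 4.75, 3.84 and 2.34. It was well above background on both scrambled arrays and not well above background on either MOTS-c array, so only a bound can be given. Of the 2 Grb10 probes on the array, 1 was tested. The bound sets the scrambled mean over the higher of the MOTS-c signal and the lowest signal that counts as above background on that array. With quantile normalization of the processed signal and all 4 arrays, this bound was 1.97-fold lower with MOTS-c (limma adjusted p = 0.578). That size rested on the processing and on 1 array: the measured log2 difference of -1.55 was -0.27 under the normexp background correction and -0.80 without MOTS-c replicate 3. Neither gene passed the adjusted test.

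**Figure D4:**
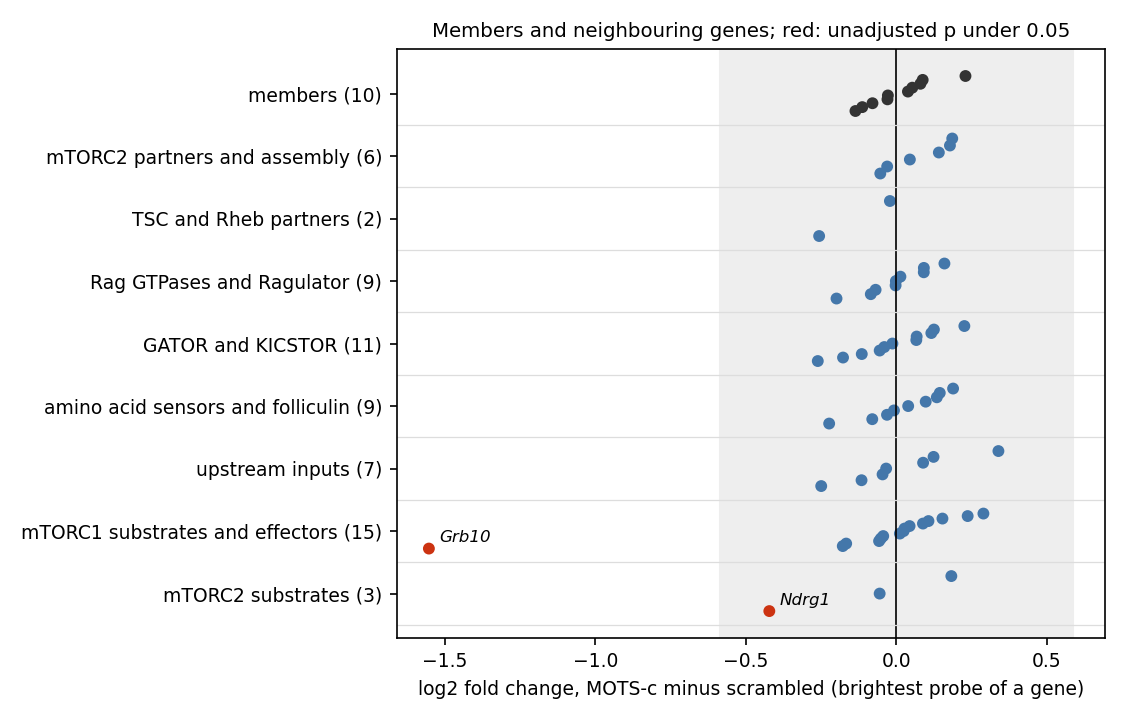
Log2 fold change, MOTS-c minus scrambled, of the brightest probe of each member gene (top row) and of each of the 62 neighbouring genes by list, with the number of genes in parentheses; red points had an unadjusted p under 0.05 and the grey band marks changes under 1.5-fold. Members span -0.14 to 0.23; Ndrg1 lies at -0.42, and Grb10 is drawn at its measured difference of -1.55 although neither MOTS-c array was well above background for it.

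Of the genes that the study itself links to mTOR, 4 are given here: Cd38, Camk2a, Map2k6 and Ulk4. They were picked from these same arrays, so their direction, lack of overlap and p-values are not independent evidence. For genes picked this way, the shares over all probes given beside them are no measure of enrichment. None belongs to the complexes or their direct regulators. By the brightest probe all 4 were lower with MOTS-c, without overlap between the groups (18.6% of all probes were), with a median log2 fold change of -0.70 and a range of -0.95 to -0.39. Map2k6, a kinase upstream of p38, was at 10.41, 10.32, 9.63 and 9.49, a log2 fold change of -0.81 (SE 0.13, unadjusted p = 0.00197, limma adjusted p = 0.474). Cd38, an NAD-consuming enzyme, gave -0.95 (SE 0.35), Camk2a gave -0.60 (SE 0.24) and Ulk4 gave -0.39 (SE 0.21). With 1 array left out these ranged from -1.40 to -0.51 for Cd38 and from -0.66 to -0.12 for Ulk4, in both with the smallest difference without MOTS-c replicate 3. Camk2a ranged from -0.87 to -0.33, the latter without scrambled replicate 2, and was -0.21 under the normexp correction. The second Camk2a probe had the opposite sign, at 0.36 (SE 0.16), and was higher without overlap (19.4% of all probes were). The 2 Camk2a probes thus separated the groups in opposite directions. Of the other Ulk4 probes one was also lower without overlap (-0.41) and one overlapped (-0.19). None of the 4 passed an adjusted p of 0.05, and 2 of them (Map2k6 and Cd38) were at an unadjusted p under 0.05, against 7.85% of all probes.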

How the data were processed

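RNA of 4 islet cell samples was hybridized to one-color Agilent arrays. The authors labeled the RNA and extracted spots with Feature Extraction (version 11.0.1.1 per the file headers), and the deposited intensity values are background corrected but not normalized between arrays. A second deposited table holds the same intensity values rounded, with ratios to the scanner values between 0.995 and 1.005.

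After removal of control and outlier spots, log2 intensities were averaged over the spots of each probe. The 35087 of 56605 probes that stood well above background on 2 or more arrays, in whichever group, were quantile normalized and compared with limma (version 3.58.1, R 4.3.3) with Benjamini-Hochberg adjustment over all of them. This background rule stands in for the Flag A filter that the methods name without defining. The fit had 2 residual degrees of freedom and 2.64 more from limma's prior. Symbols came from RefSeq and Ensembl accessions through a gene table of assembly GRCm38.p6 (32994 probes matched). The array design uses another build, so no coordinates are given. The number of arrays limits the precision.

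Named genes are all 10 members with every probe, listed neighbours at an unadjusted p under 0.05 or 1.5-fold, the closest relatives and partners of members, and 4 genes the study names. A few genes on these lists are left unreported here. A gene is represented by its brightest probe. Members and lists were chosen with earlier results of these data known. The sex-linked genes were added after their values were seen. Alternatives were a 75th percentile shift, normexp (offset 50, on median signals), the rounded table, no or a strict background filter, an intensity trend in limma, the methods' t-test, gene means over probes, and leaving out each array. The steps were tested on simulated data.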

Additional observations from a re-analysis of the deposited data

How the results depend on the processing

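In the settings that kept all 4 arrays, 110 of 111 member probe values kept their direction and none passed an adjusted p of 0.05. The dimmer Tsc1 probe turned to -0.0011 under normexp, Tbc1d7 to 0.10 under normexp and Rps6 to -0.045 under the 75th percentile shift. With the mean over the probes of a gene, 1 member gene, Eif4ebp1, was without overlap. Of the neighbours, 0 differed by 1.5-fold under normexp or the strict filter, and 4 without the filter, 5 under normexp and 1 under the strict filter had an unadjusted p under 0.05. The neighbours with both were 0 under the methods' t-test, without the filter, under normexp and under the strict filter. The strict filter removes the dimmer Tsc1 probe and Grb10. The neighbour median was -0.031 under the 75th percentile shift. Over all probes the methods' t-test called 1 after adjustment and every other setting 0. Under that t-test 9 member probes and 43 neighbour genes had an interval inside 1.5-fold, against 13 and 53 in the main fit. Leaving out 1 array leaves 1 in its group, which is assumed to vary like the other group and makes groups without overlap easier to meet. None of these 64 member probe values passed the adjusted threshold and 15 changed sign, with the largest at 0.58 for the dimmer Tsc1 probe. Across these 4 settings the members without overlap numbered 7 to 11 and those with an interval inside 1.5-fold 4 to 9, with a median of -0.041 to 0.029. For the neighbours the corresponding values were 39 to 49, 12 to 36 and 0.010 to 0.033, with 1 to 3 at 1.5-fold, 0 to 2 at an unadjusted p under 0.05 and 0 to 2 with both. The ranges that crossed 0 were -0.18 to 0.024 and -0.098 to 0.038 (Akt1s1), -0.17 to 0.21 and -0.092 to 0.27 (Deptor), -0.19 to 0.027 (Mlst8), -0.010 to 0.087 (Mtor), -0.14 to 0.035 (Prr5l), -0.19 to 0.55 and -0.21 to 0.15 (the dimmer Rictor probes), -0.0055 to 0.16 (Rptor), -0.13 to 0.086 (Tbc1d7), -0.064 to 0.0070 and -0.17 to 0.58 (Tsc1) and -0.074 to 0.089 (the dimmer Tsc2 probe). The cause of these shifts was not tested beyond this.

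No paired analysis was possible because the treatments share only replicate number 2. The slide was not used as a block because all arrays lay on 1. Signal over background limits the dimmer Rictor and Tsc1 probes.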
